A study of Homo sapiens with 9 samples.

Results

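The transcripts of HCT8 cells exposed to membrane vesicles of Vibrio cholerae were compared directly with those of HCT8 cells exposed to membrane vesicles of Escherichia coli. HCT8 is an established human line from a colorectal adenocarcinoma of the ileocecal region. The vesicle donors were V. cholerae strain C6706 and E. coli strain MC1061, and cells were incubated with vesicles for 5 h after the medium had been changed. Each vesicle group held 3 libraries, and 3 control libraries, which the labels call untreated and the protocol describes as 20 mM Tris-HCl, are given here as levels only. All groups share the same line, medium and incubation time, and the labels do not give the vesicle dose. The rows compared were those with 10 or more counts in at least 3 of the 6 vesicle libraries, which were 3433 of the 26008 rows of the deposited count table. Of these, 2096 had 10 or more counts in all 6 libraries, 27 passed through the V. cholerae libraries alone and 1 through the E. coli libraries alone. None of the rows named by rule in this text passed through 1 group only.

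Gram-negative bacteria shed outer membrane vesicles that carry lipopolysaccharide, outer membrane proteins and periplasmic contents. Epithelial cells can take such vesicles up, and the cargo can be sensed by pattern recognition receptors that act through NF-kB and other pathways. C6706 is an El Tor strain of the O1 serogroup that causes cholera, and MC1061 is a laboratory K-12 strain. The direct contrast asks where the cells' transcripts differed with the source of the vesicles, and not where both kinds of vesicle differed from the control.

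Most counts lay in rows whose gene overlaps a second gene transcribed the other way. Of the 3433 rows, 3355 were matched by name to a GRCh38 annotation, and 2224 of these have an exon of another gene opposite, with 89.2% of the matched counts. Over all 25337 matched rows of the deposited counts, 8335 (32.9%) have such an exon, which is a share of rows and not of counts. A coding gene lies opposite 1658 of the compared rows, which held 77.7% of the matched counts. Each row is therefore named below with its deposited name and, where there is 1, with the coding gene opposite. For the rows with the highest log2 differences and those with replicate 3 opposed, the distance from the 3' end of that gene is given too, in exonic bases, where 0 nt means that the overlap reaches that end. How strand was handled in counting was not given in the sources used here, and which of the 2 genes a row's reads came from was not tested.

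Total counts were 374515 to 733412 in the V. cholerae libraries, with replicate 3 the deepest, and 396620 to 425884 in the E. coli libraries. Levels are in CPM, counts scaled to a common library size with TMM factors, and 3 counts were worth 3.97 to 8.64 CPM in these 6 libraries. Replicate 3 stood apart from replicates 1 and 2 in both groups. The chi-square of counts per degree of freedom was 1.08 between V. cholerae replicates 1 and 2, close to sampling noise (chi-square p = 0.00272), 2.43 between E. coli replicates 1 and 2, and 8.87 to 13.0 for each pair with replicate 3. On the first principal component, with 45.8% of the variance, E. coli replicates 1 and 2 lay on 1 side and the other 4 libraries on the other. Nothing in the labels ties a replicate to a culture of its own, so the p-values reflect the spread among these libraries, which may be technical. Summed by row name, markers of colon epithelium held 7662 to 11134 counts in the V. cholerae libraries and 7811 to 9998 in the E. coli libraries. Nearly all of these were in 1 row, KRT8, which lies opposite KRT18. The KRT8 row held 8123, 7550 and 10964 counts with V. cholerae and 9848, 9874 and 7714 with E. coli vesicles. The other epithelial markers thus held few counts, and TSPAN8 held 0. Immune markers held 25 to 145 and 62 to 96 counts, with 9 of 16 at 0, PTPRC, CD3D and CD3E among them. Fibroblast and endothelial markers held 21 to 93 and 11 to 45 counts, with 9 of 15 at 0. By row name, 3 epithelial, 2 immune and 1 fibroblast or endothelial marker rows passed the count filter. Which gene's reads a row holds was not tested, so a count of 0 by row name is no measure of cell content.

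C11orf68 (row XLOC_004572 of the deposited counts) was the single row called between the vesicle groups. It was lower with V. cholerae vesicles, and its row names a coding gene of little-known function. The counts were 55, 61 and 111 in V. cholerae replicates 1 to 3, 156, 160 and 231 in E. coli replicates 1 to 3, and 18, 22 and 69 in the controls. The lowest E. coli level, 447 CPM, was above the highest V. cholerae level, 176 CPM, and the controls had 54.5, 59.9 and 142 CPM. In group means the level was 160 ± 14.4 CPM (SD, n = 3) in the V. cholerae group and 477 ± 42.5 CPM in the E. coli group. The log2 difference, V. cholerae minus E. coli, was -1.58 ± 0.25 (SE), with an adjusted p of 0.0479 in edgeR's quasi-likelihood test with Benjamini-Hochberg adjustment. Calls made up 0.0291% of the rows tested. The log2 ratios of same-numbered libraries (V. cholerae over E. coli, on CPM with a prior count of 2, called replicate ratios below) were -1.48, -1.36 and -1.81 for replicates 1, 2 and 3, so replicate 3 had the sign and at least the size of the other two. In bulk libraries such as these, fewer cells with a transcript and less of it per cell cannot be told apart.

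The size of this difference held over the settings tried, and its call did not. Over 13 alternatives of normalization, filter, tool and fit, the log2 difference of C11orf68 was -1.59 to -1.43 and its adjusted p 1.35e-11 to 0.330, and 6 of the 13 ended the call. In the fit by group alone, without replicate numbers as a block, leaving out any 1 of 5 libraries also ended it, with adjusted p values of 0.104 to 0.530 (V. cholerae replicate 1, 0.339; replicate 2, 0.530; replicate 3, 0.104; E. coli replicate 1, 0.268; replicate 2, 0.108), whereas without E. coli replicate 3 the adjusted p was 0.00205. That last fit called 239 rows in all. With V. cholerae replicates 1 and 2 summed as 1 library, the adjusted p was 0.330. DESeq2 called 3 rows (C11orf68, SOCS2 and MIR4253) and limma voom called 1. At an unadjusted p under 0.05 there were 290 rows, where 172 would be expected by chance.

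C11orf68 lies on the minus strand of chromosome 11 (GRCh38, chr11:65916808-65919117), and no annotated exon lies opposite it. DRAP1, which encodes a transcriptional corepressor subunit, starts 140 nt away on the other strand, head to head with C11orf68. The DRAP1 row held 18, 12 and 13 counts with V. cholerae and 31, 38 and 21 with E. coli vesicles. CCDC85B, a further row of the same stretch of chromosome 11, also had groups that did not overlap. The 250 bases before the RefSeq start of each of the 2 rows (GRCh38.p14) are shown because both rows had their higher levels with E. coli vesicles and share a neighbourhood. They are read 5' to 3' on the strand of the gene, with C11orf68 at chr11:65919063-65919312 on the minus strand and CCDC85B at chr11:65890423-65890672 on the plus strand. Nothing is in capitals because none of the motifs searched was found.
C11orf68 promoter: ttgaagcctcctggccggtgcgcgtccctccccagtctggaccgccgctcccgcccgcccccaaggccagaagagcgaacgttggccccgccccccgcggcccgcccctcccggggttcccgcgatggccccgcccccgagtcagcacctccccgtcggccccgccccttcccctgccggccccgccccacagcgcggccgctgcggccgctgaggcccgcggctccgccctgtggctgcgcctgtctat
CCDC85B promoter: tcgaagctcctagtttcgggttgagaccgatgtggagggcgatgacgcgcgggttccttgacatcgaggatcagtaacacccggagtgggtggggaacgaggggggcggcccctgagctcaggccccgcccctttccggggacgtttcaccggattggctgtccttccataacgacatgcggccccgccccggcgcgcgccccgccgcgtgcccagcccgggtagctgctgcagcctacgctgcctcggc

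The C11orf68 window is 79.2% G and C and the CCDC85B window 68.8%. Both were searched on both strands for the AP-1 motif TGANTCA, for the STAT motif TTCNNNGAA and for the NF-kB motif. The 3 motifs were found in 6.57%, 6.57% and 5.21% of the 35116 promoter windows of the table and in neither of these windows, which says only that these letters are not in them. The windows of C11orf68 and DRAP1 share 137 bases, as reverse complements.

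SOCS2 had the lowest log2 difference of the rows named by rule with at least 30 counts on average. SOCS2 encodes a feedback inhibitor of cytokine and growth hormone signalling through JAK and STAT proteins. Its row held 87, 73 and 69 counts with V. cholerae vesicles, 248, 215 and 191 with E. coli vesicles and 19, 28 and 50 in the controls. In CPM these were 250, 210 and 91.4 against 711, 614 and 435, so the groups did not overlap, and the controls had 57.5 to 103 CPM. The log2 difference was -1.70 ± 0.34 (SE), and edgeR's adjusted p of 0.282 did not pass. Its replicate ratios were -1.49, -1.53 and -2.19, so replicate 3 had the sign of replicates 1 and 2 and a larger size. DESeq2 gave an adjusted p of 0.0178, and over all alternatives the adjusted p ran from 7.38e-17 to 0.968 and the log2 difference from -1.99 to -1.33. The antisense gene SOCS2-AS1 lies opposite, and its own row held 1, 1 and 7 counts with V. cholerae and 7, 5 and 4 with E. coli vesicles. Rows of the related inhibitors were nearly empty, with 0 counts in the 6 libraries for SOCS1, 1 for SOCS3 and 3 for CISH.

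**Figure D1:**
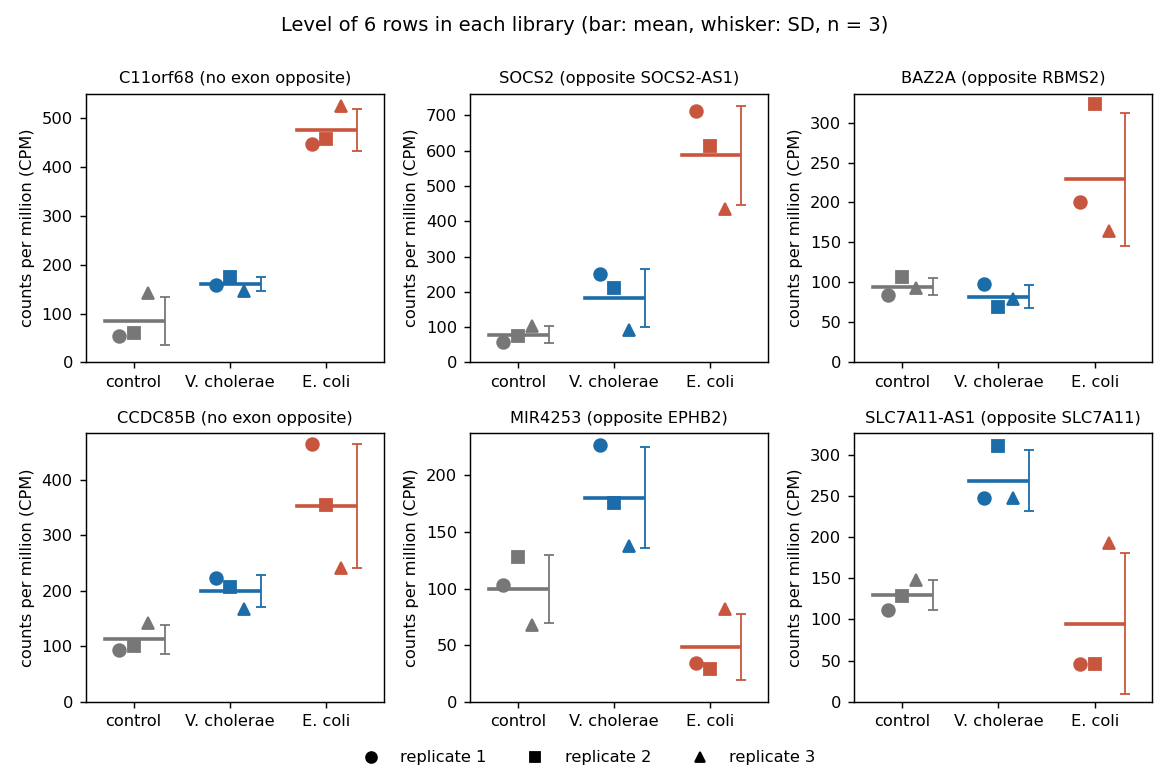
Level in CPM of 6 rows in each control, V. cholerae and E. coli vesicle library, with the mean as a bar and the SD as a whisker (n = 3). C11orf68, SOCS2, BAZ2A and CCDC85B had every E. coli library above every V. cholerae library, and MIR4253 and SLC7A11-AS1 had E. coli replicates 1 and 2 low and replicate 3 nearer the V. cholerae level.

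BAZ2A and RBMS2 are neighbours with overlapping 3' ends, each lying opposite the other. BAZ2A encodes a subunit of a nucleolar remodelling complex that silences ribosomal RNA genes, and RBMS2 a single-stranded RNA-binding protein. The BAZ2A row held 34, 24 and 60 counts with V. cholerae and 70, 113 and 72 with E. coli vesicles, which is 82.1 ± 14.4 against 229 ± 83.2 CPM (SD, n = 3). The highest V. cholerae level of the BAZ2A row was 97.6 CPM and the lowest E. coli level 164 CPM, in replicate 3. Its log2 difference was -1.48 ± 0.33 with an adjusted p of 0.282 (edgeR), and the replicate ratios -1.01, -2.15 and -1.0 had the same sign. The RBMS2 row held 98, 90 and 195 counts against 133, 213 and 143, with a log2 difference of -0.72 ± 0.28 and replicate ratios of -0.43, -1.22 and -0.33. In both rows E. coli replicate 2 was the highest of the 6 libraries in CPM, and replicate 3 had the sign of replicates 1 and 2.

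CCDC85B encodes a small coiled-coil nuclear protein. Its row held 78, 72 and 126 counts with V. cholerae, 162, 124 and 106 with E. coli vesicles and 31, 37 and 69 in the controls. The levels were 224, 207 and 167 against 465, 354 and 241 CPM, so the groups were apart by little in replicate 3 of E. coli. The log2 difference of CCDC85B was -0.83 ± 0.29 with an adjusted p of 0.497 (edgeR), and its replicate ratios were -1.04, -0.76 and -0.52. FOSL1, which encodes an AP-1 subunit, lies on the other strand with its 3' end 414 nt away and facing CCDC85B. The FOSL1 row itself held 9, 6 and 8 against 9, 5 and 6 counts.

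A further 6 rows made up the 10 lowest log2 differences among rows with at least 30 counts on average, groups that did not overlap and 1 sign in all 3 replicate ratios. C11orf68, SOCS2, BAZ2A and CCDC85B are the others of these 10, and the rule fixes the sign of replicate 3 in all of them. In all rows compared, 160 (4.66%) had groups that did not overlap with V. cholerae lower and 260 (7.57%) with V. cholerae higher. The 6 rows all reach the 3' end of the coding gene opposite. PERM1 lies opposite PLEKHN1, a gene for a pleckstrin homology domain protein, and held 99, 95 and 231 counts against 236, 285 and 195. The PERM1 row had a log2 difference of -1.16 ± 0.27 with an adjusted p of 0.314 (edgeR), and its replicate ratios were -1.24, -1.56 and -0.53. In CPM the 3 V. cholerae levels of PERM1 were close together (284, 274 and 306), and E. coli replicate 3 was the lowest E. coli library at 444.

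POLR2E lies opposite ARHGAP45 and had a log2 difference of -1.05 ± 0.34 and replicate ratios of -1.92, -0.88 and -0.36. SHMT1 lies opposite SMCR8, a partner of C9orf72 in autophagy, and held 23, 13 and 43 against 38, 43 and 41 counts, with -1.0 ± 0.34 and ratios of -0.69, -1.60 and -0.67. CDC23 lies opposite KIF20A, a kinesin of cytokinesis, and held 16, 29 and 43 against 33, 47 and 46 counts, with -0.84 ± 0.34 and ratios of -0.97, -0.66 and -0.83. In SHMT1 and CDC23 replicate 3 was about as far from 0 as replicate 1. DNAAF1, opposite TAF1C (a subunit of the RNA polymerase I selectivity factor), had -0.86 ± 0.31 and ratios of -0.98, -1.12 and -0.35. LLGL1, opposite the actin-binding protein gene FLII, had -0.83 ± 0.33 and ratios of -0.96, -1.17 and -0.11. Replicate 3 kept the sign in all 6 rows by the rule that chose them, and in LLGL1 it was near 0. Adjusted p values of these 5 rows were 0.470 to 0.497 in edgeR's test.

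**Figure D2:**
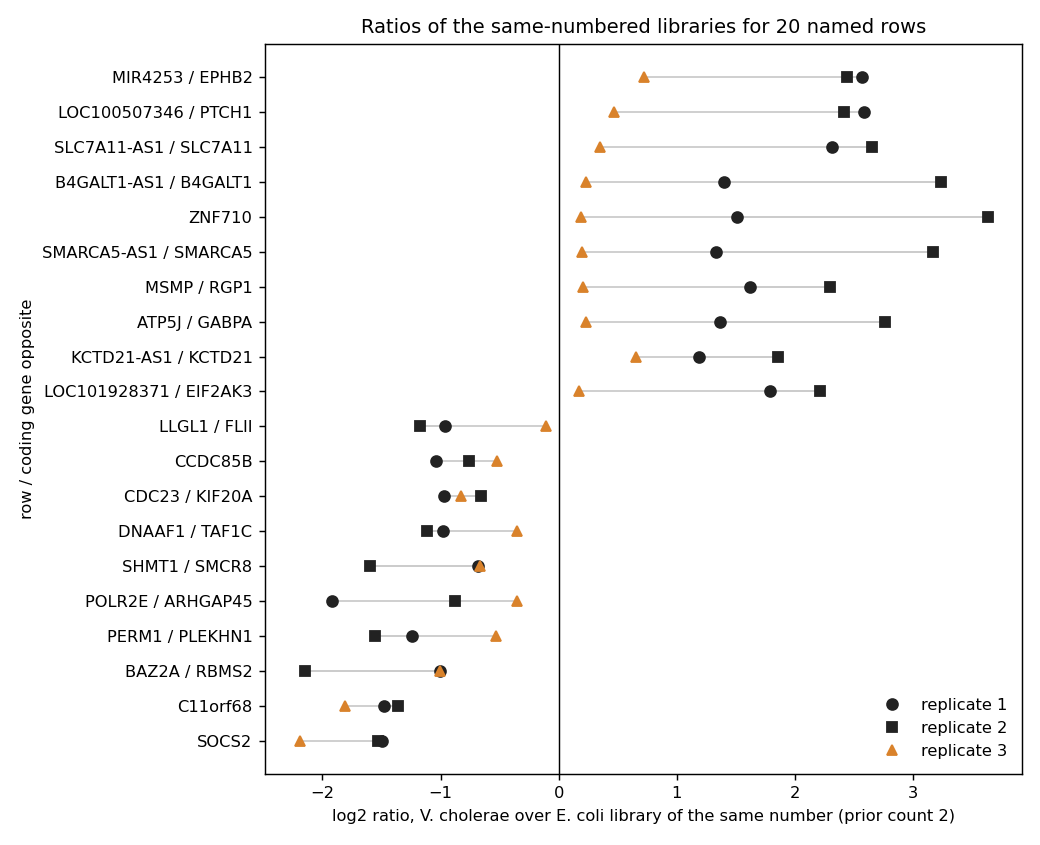
Log2 ratio of V. cholerae over E. coli libraries of the same number (x axis, prior count 2) for the 20 rows named as lowest and highest (y axis, with the coding gene opposite). In the 10 highest rows replicate 3 (orange) lay at 0.17 to 0.72 while replicates 1 and 2 lay at 1.19 to 3.63, and in C11orf68 and SOCS2 replicate 3 was the farthest from 0.

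By the same rule, which fixes the sign of replicate 3, the 10 highest log2 differences were 1.22 to 1.85, and no row among them passed the test. The highest was MIR4253, whose locus lies opposite EPHB2, a receptor tyrosine kinase for ephrin-B ligands that is known as a Wnt target of intestinal crypts. The row is 11286 nt from the 3' end of EPHB2. A poly(A)-selected library does not sample mature miRNAs, so the row is no measure of the miRNA. The mature sequence from RefSeq (GRCh38.p14, chr1:22863169-22863186, minus strand) is shown to identify the row, with the seed, bases 2 to 8, in capitals.
hsa-miR-4253: aGGGCAUGuccagggggu

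MIR4253 held 79, 61 and 104 counts with V. cholerae, 12, 10 and 36 with E. coli vesicles and 34, 47 and 33 in the controls. Its log2 difference was 1.85 ± 0.39 (SE) with an adjusted p of 0.282 in edgeR's test, and 0.0178 in DESeq2, with a range of 8.68e-16 to 1.00 over the alternatives. The replicate ratios were 2.57, 2.44 and 0.72, so replicate 3 had a smaller size, its sign being set by the rule. The EPHB2 row itself held 1, 4 and 6 against 3, 2 and 3 counts.

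LOC100507346 lies opposite PTCH1, the Hedgehog receptor, 9823 nt from its 3' end, and held 62, 44 and 87 against 9, 7 and 36 counts, with controls at 50, 63 and 49. With a log2 difference of 1.66 ± 0.44 (adjusted p 0.470, edgeR), its replicate ratios were 2.58, 2.41 and 0.47. SLC7A11-AS1 lies opposite SLC7A11, the cystine and glutamate antiporter, 4620 nt from its 3' end, and held 86, 108 and 187 against 16, 16 and 85 counts, with controls at 37, 47 and 72. In CPM that was 247, 311 and 248 against 45.9, 45.7 and 193, a log2 difference of 1.46 ± 0.45 with replicate ratios of 2.32, 2.65 and 0.35. SMARCA5-AS1 lies opposite the ISWI ATPase gene SMARCA5, 7746 nt from its 3' end, and held 311, 307 and 474 against 123, 33 and 240 counts, with controls at 335, 433 and 416. With a log2 difference of 1.26 ± 0.42, its replicate ratios were 1.33, 3.17 and 0.20. In these 3 rows E. coli replicates 1 and 2 were the lowest of the 6 libraries, and E. coli replicate 3 lay between them and the V. cholerae libraries.

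In the remaining high rows, too, replicate 3 was the highest of the E. coli libraries in CPM. B4GALT1-AS1 (opposite the galactosyltransferase gene B4GALT1, 4519 nt from its 3' end) had a log2 difference of 1.45 ± 0.47 and replicate ratios of 1.40, 3.24 and 0.23. ZNF710, a zinc finger gene with ZNF710-AS1 opposite, had 1.41 ± 0.52 and ratios of 1.50, 3.63 and 0.19, with E. coli counts of 12, 2 and 32. MSMP (opposite RGP1, a Golgi exchange factor subunit for Rab6, at 1962 nt) had 1.24 ± 0.34 and ratios of 1.62, 2.29 and 0.21. All 3 had replicate 3 at a fraction of the size of replicates 1 and 2. ATP5J (opposite GABPA, an ETS family transcription factor, at 4733 nt) had 1.23 ± 0.45 and ratios of 1.36, 2.76 and 0.23. KCTD21-AS1 (opposite KCTD21, at 2151 nt) had 1.23 ± 0.34 and ratios of 1.19, 1.86 and 0.65. LOC101928371 (opposite EIF2AK3, the PERK kinase of the unfolded protein response, at 0 nt) had 1.22 ± 0.36 and ratios of 1.79, 2.21 and 0.17. KCTD21-AS1 and MIR4253 had the largest replicate 3 ratios of the 10, and the adjusted p of the 10 rows was 0.282 to 0.497 in edgeR's test.

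Replicate 3 had the sign of the mean of replicates 1 and 2 in 1830 of the 3433 rows (53.3%). In a fit of replicates 1 and 2 alone, edgeR called 790 rows (23.0%), 437 higher with V. cholerae (12.7%) and 353 lower (10.3%). Among those, replicate 3 had the same sign in 444 of 790 (56.2%), which was 52.4% of the higher and 60.9% of the lower rows. It had the same sign and at least 50% of the size in 95 of 790 (12%), 32 of the higher and 63 of the lower rows. Of the 50 rows with the smallest p in replicates 1 and 2, 25 had the same sign in replicate 3. With 1 library a group in replicate 3 these shares carry no test, and rows are not independent replicates.

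**Figure D3:**
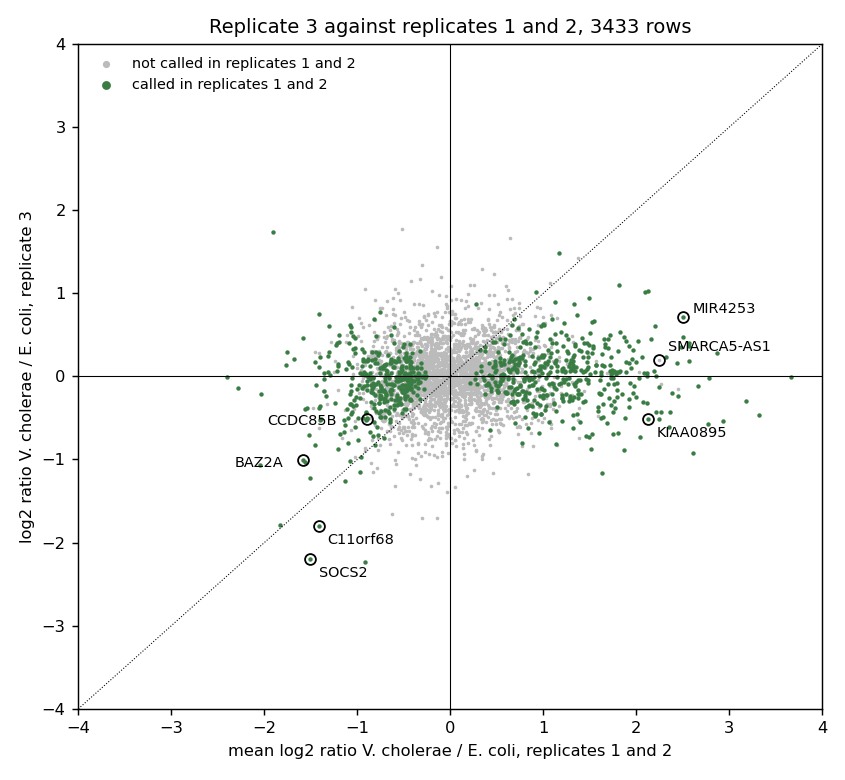
Log2 ratio in replicate 3 (y axis) against the mean log2 ratio of replicates 1 and 2 (x axis) for 3433 rows, with the 790 rows called in replicates 1 and 2 in green, 7 named rows circled and the dotted line marking equal values. Most called rows lie along the horizontal axis, near 0 in replicate 3, and C11orf68, SOCS2 and BAZ2A lie toward the dotted line.

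The replicates also differed by position along the opposite gene. For the 374 rows at 3000 nt or more from the 3' end of the coding gene opposite, the median replicate ratio was 0.43 in replicate 1, 0.65 in replicate 2 and -0.01 in replicate 3. For the 882 rows under 500 nt it was -0.14, -0.30 and 0.00. The Spearman rank correlation between ratio and distance over 1658 rows was 0.364, 0.430 and 0.0038 in replicates 1, 2 and 3, as a description of rows that share the same libraries. Replicates 1 and 2 thus had a gradient along the opposite gene that replicate 3 lacked. Of the 374 rows at 3000 nt or more, groups did not overlap in 74 with V. cholerae higher and in 6 with it lower. Of the 882 rows under 500 nt, these numbers were 38 and 67. Over all 3433 rows they were 260 (7.57%) and 160 (4.66%).

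**Figure D4:**
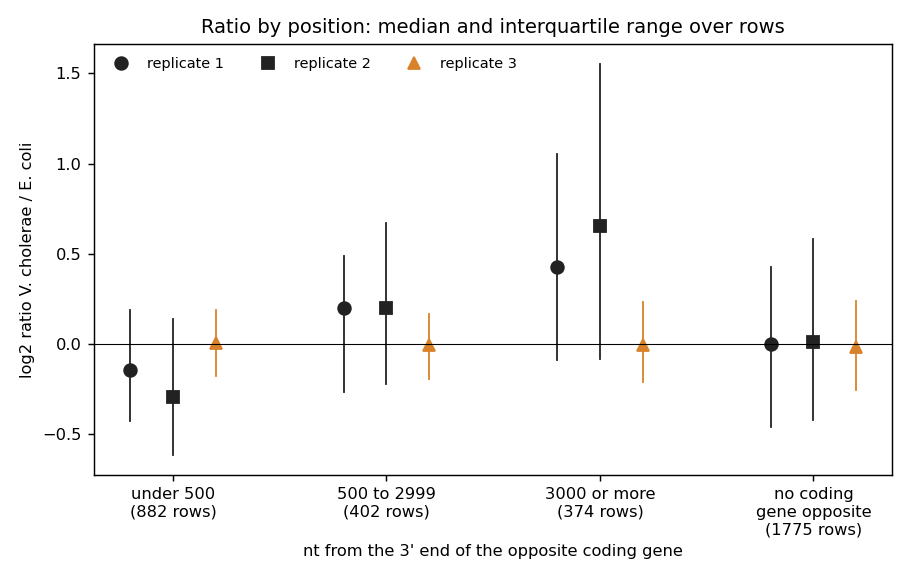
Log2 ratio of V. cholerae over E. coli libraries of the same number (y axis), as the median (symbol) and interquartile range (line) over rows, by distance from the 3' end of the coding gene opposite (x axis). In replicates 1 and 2 the median passed from -0.14 and -0.30 under 500 nt to 0.43 and 0.65 at 3000 nt or more, and in replicate 3 it stayed near 0.

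The libraries that stood apart in this respect were E. coli replicates 1 and 2. The counts of rows at 3000 nt or more were 12.3% and 10.9% of those under 500 nt in E. coli replicates 1 and 2, against 17.4% in E. coli replicate 3, 17.1% to 17.8% in the V. cholerae libraries and 17.7% to 18.0% in the controls. The rows MIR6723 and MIR4461, which match mitochondrial sequence, took 4.56%, 5.22% and 4.46% of counts in the E. coli libraries, 2.54%, 2.32% and 5.44% in the V. cholerae libraries and 1.90% to 3.84% in the controls. The part of this difference between libraries in the named rows was not tested beyond 1 alternative. The trend over distance was removed from each library among the 1658 rows that have a coding gene opposite. The log2 difference was then 1.45 for MIR4253, 1.29 for LOC100507346, 1.18 for SLC7A11-AS1, 0.92 for SMARCA5-AS1, -1.25 for BAZ2A and -0.93 for PERM1. None of the 1658 rows was called, and 167 had an unadjusted p under 0.05 (edgeR). With the trend left in, none of these rows was called either, and 170 had an unadjusted p under 0.05. C11orf68, SOCS2 and CCDC85B have no coding gene opposite and lie outside that alternative.

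In some rows replicate 3 went against replicates 1 and 2. KIAA0895, opposite ANLN, which encodes the contractile ring protein anillin, at 5773 nt from its 3' end, held 152, 135 and 173 counts with V. cholerae and 42, 24 and 144 with E. coli vesicles. Its replicate ratios were 1.82, 2.43 and -0.51, and its log2 difference of 1.00 ± 0.44 had an adjusted p of 0.559 (edgeR). MASTL, opposite the mitochondrial protease gene YME1L1 at 6892 nt, held 35, 45 and 53 against 12, 4 and 45 counts, with replicate ratios of 1.43, 3.06 and -0.52. The E. coli libraries 1 and 2 were again the low ones in both rows. LOC100506606 (opposite the fatty acyl-CoA reductase gene FAR2, at 2480 nt) had ratios of 0.54, 1.86 and -0.54, and RAB3IP, a Rab8 exchange factor with no exon opposite, had 0.87, 0.81 and -0.62. TTC7A (opposite MCFD2, an ER cargo receptor subunit, at 5710 nt) had 0.31, 1.44 and -0.50.

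In the other direction, ENO4, opposite SHTN1 at 33 nt, held 15, 10 and 83 against 27, 40 and 31 counts, with replicate ratios of -0.78, -1.83 and 0.61. BID, a proapoptotic BH3-only member of the BCL2 family with no exon opposite, held 22, 28 and 86 against 51, 58 and 32 counts, with ratios of -1.15, -1.0 and 0.61. Both rows had their highest count in V. cholerae replicate 3, the deepest library. TSPAN18 (opposite TP53I11, at 1176 nt) had ratios of -1.12, -0.39 and 0.78. NEIL1 (opposite the cytosolic mannosidase gene MAN2C1, at 0 nt) had -0.36, -0.85 and 0.59, and MYH7B (opposite TRPC4AP, at 0 nt) had 0.00, -1.28 and 0.60. These 10 rows were chosen for the sign of replicate 3, so the disagreement is a description of them.

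DNMT1, the maintenance DNA methyltransferase, was given by name because the series title speaks of epigenetics. Its row has no exon opposite and held 21, 19 and 33 counts with V. cholerae, 11, 8 and 27 with E. coli vesicles and 21, 22 and 26 in the controls. The log2 difference was 0.40 ± 0.42 with an adjusted p of 0.845 (edgeR), and the replicate ratios were 0.84, 1.11 and -0.45, so replicate 3 had the other sign. Counts over the 6 libraries were 0 for DNMT3A, 2 for DNMT3B and 42 for TET2.

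Loci without a gene name and with no coding gene opposite were passed over in ranking rows by counts. Among the other rows, the 5 with the most counts had log2 differences within about their standard errors, and none passed the test. The rows MIR6723 and MIR4461, whose shares of counts are given above, are not among these 5. SNX22, opposite the ER cyclophilin gene PPIB, held 8716 to 15498 counts in the 6 libraries and had a log2 difference of -0.19 ± 0.26 with replicate ratios of -0.21, -0.34 and 0.05. LOC284889, opposite the cytokine gene MIF, had -0.21 ± 0.32 and ratios of -0.22, -0.31 and 0.01, and KRT8, opposite its partner keratin gene KRT18, had -0.31 ± 0.28 and ratios of -0.28, -0.38 and -0.27. KRT8 was the one of these 3 in which replicate 3 had the sign of the others. ATP6V1C2, opposite the protein disulfide isomerase gene PDIA6, had 0.00 ± 0.25 and ratios of -0.03, 0.09 and -0.06. MXD3, opposite the mitochondrial lipid transfer gene PRELID1, had -0.0022 ± 0.27 and ratios of 0.01, 0.01 and -0.05. Adjusted p values of these 5 rows were 0.822 to 0.999 in edgeR's test.

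The 24 gene lists were read by the coding gene opposite each row and, beside it, by the row name. By opposite gene 13 lists had at least 5 rows. No list row was called in either reading. Over all 3433 rows, 1740 had a positive and 1693 a negative log2 difference, the median was 0.0047, the 5th and 95th percentiles were -0.66 and 0.88, and the median SE was 0.386.

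Genes of the actin cytoskeleton and of its regulator SRF had the lowest list median by opposite gene. Of 5 rows, 4 had a negative log2 difference, the median was -0.67, and the medians of the replicate ratios were -0.68, -0.58 and -0.49. PCSK7, opposite the smooth muscle actin-binding gene TAGLN, held 14, 13 and 16 counts with V. cholerae and 34, 27 and 21 with E. coli vesicles, with -1.21 ± 0.41 and replicate ratios of -1.19, -0.96 and -1.02. SMARCC2, opposite the myosin light chain gene MYL6, held 54, 67 and 124 against 104, 102 and 102 counts, with -0.68 ± 0.26 and ratios of -0.92, -0.58 and -0.49. In these 2 rows the groups did not overlap and replicate 3 had the sign of the others. Groups did not overlap in 3 of the 5 rows of the list. Over all 3433 rows they did not in 160 (4.66%) with V. cholerae lower and in 260 (7.57%) with it higher. CAPN12, opposite the alpha-actinin gene ACTN4, had -0.67 ± 0.28 and ratios of -0.68, -0.86 and -0.31, AP3M1, opposite the vinculin gene VCL, had -0.65 ± 0.30 and ratios of -0.68, -0.37 and -0.77, and TADA3, opposite ARPC4 of the Arp2/3 complex, had 0.40 ± 0.32 and ratios of 0.48, 0.96 and -0.21. By row name 11 of 13 rows were negative with a median of -0.28, and replicate ratio medians were -0.40, -0.08 and -0.42. Replicate 3 had the sign of the mean of replicates 1 and 2 in 6 of these 13 rows, and groups did not overlap in 1. Among the negative rows, ACTG1, cytoplasmic gamma-actin with no exon opposite, held 19, 17 and 19 against 48, 40 and 22 counts, with ratios of -1.27, -1.15 and -0.88. PCSK7 and SMARCC2 reach the 3' end of the opposite gene, and all rows under 500 nt had a median log2 difference of -0.15.

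**Figure D5:**
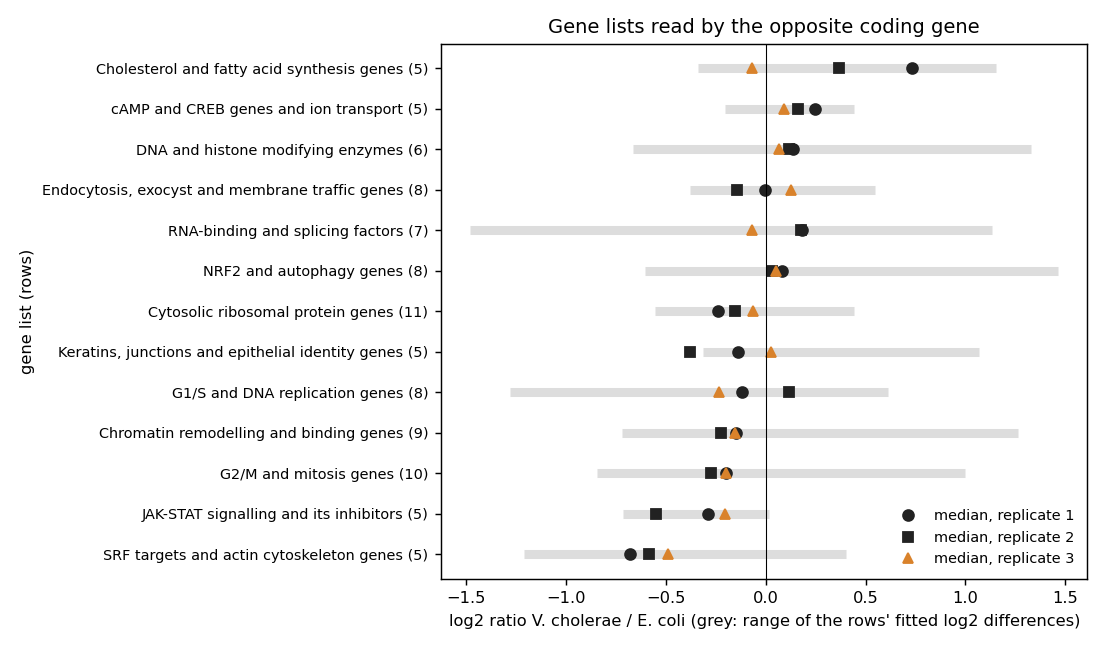
Median log2 ratio of V. cholerae over E. coli libraries in each replicate (symbols, x axis) and the range of the rows' fitted log2 differences (grey), for the 13 gene lists with at least 5 rows by opposite coding gene (y axis, number of rows in parentheses). The actin list had the lowest median in each replicate, at -0.68, -0.58 and -0.49, and the cholesterol list had 0.73 and 0.37 in replicates 1 and 2 against -0.07 in replicate 3.

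JAK-STAT rows by opposite gene had a median of -0.35 with 3 of 5 negative, and replicate ratio medians of -0.29, -0.55 and -0.20. CALML4, opposite the STAT inhibitor gene PIAS1, held 64, 72 and 140 against 85, 107 and 102 counts, with -0.44 ± 0.26 and ratios of -0.40, -0.55 and -0.32. NUDT17, opposite PIAS3, had -0.71 ± 0.41 and ratios of -0.29, -1.32 and -0.15, and TMEM50B, opposite the interferon gamma receptor gene IFNGR2, had 0.01 ± 0.30 and ratios of -0.01, 0.16 and -0.20. By row name 5 of 7 were negative with a median of -0.40, SOCS2 included. IFNLR1, a receptor chain for type III interferons with no exon opposite, held 9, 11 and 44 against 38, 24 and 47 counts, with -1.23 ± 0.39 and ratios of -1.90, -1.01 and -0.83. PTPN6, the phosphatase SHP-1, had 0.85 ± 0.37 and ratios of 0.83, 0.41 and 1.04. Replicate 3 had the sign of the others in CALML4, NUDT17, IFNLR1 and PTPN6.

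Cell cycle rows by opposite gene spread to both sides. Of 10 rows opposite G2/M and mitosis genes, 7 were negative with a median of -0.29, and CDC23 and KIAA0895 above were the 2 with the smallest p. PRC1-AS1, opposite the spindle midzone gene PRC1, had the most counts of that list, -0.04 ± 0.23 and ratios of -0.10, 0.07 and -0.11. By row name the median of the same list was 0.15. Of 8 rows opposite G1/S and replication genes, 5 were negative with a median of -0.23. INTS8, opposite the cyclin E2 gene CCNE2, held 52, 49 and 65 counts with V. cholerae, 120, 157 and 50 with E. coli vesicles and 132, 96 and 79 in the controls. Its log2 difference was -1.28 ± 0.42 (adjusted p 0.470, edgeR), its ratios were -1.18, -1.64 and -0.38, and E. coli replicate 3 lay among the V. cholerae levels. WSB2, opposite the replication factor C gene RFC5, had -0.49 ± 0.29 and ratios of -1.01, -0.36 and -0.10, and ENOSF1, opposite the thymidylate synthase gene TYMS, had 0.05 ± 0.26 and ratios of -0.05, 0.19 and -0.01.

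Of 11 rows opposite cytosolic ribosomal protein genes, 6 were negative with a median of -0.20, and replicate ratio medians were -0.24, -0.16 and -0.06. WDR38, opposite RPL35, had -0.56 ± 0.33 and ratios of -0.53, -0.84 and 0.02, and CCDC84, opposite RPS25, had -0.51 ± 0.30 and ratios of -0.48, -0.74 and -0.11. By row name 34 of 39 ribosomal rows were negative, against 1693 of all 3433, with a median of -0.34 and replicate ratio medians of -0.25, -0.53 and -0.10. Those rows held few counts. RPL11 had 6, 5 and 10 against 22, 17 and 14 counts and ratios of -1.63, -1.48 and -1.03. RPL9 had 14, 29 and 25 against 48, 43 and 27 counts and ratios of -1.67, -0.53 and -0.81. In RPL11 and RPL9 replicate 3 had the sign of the others.

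Chromatin rows were mixed. Of 9 rows opposite remodelling and chromatin-binding genes 5 were negative (median -0.23), with RBMS2 and SMARCA5-AS1 above at the ends, and C5orf66, opposite the macroH2A gene H2AFY, had 0.18 ± 0.24 and ratios of 0.22, 0.36 and -0.10. Of 6 rows opposite DNA and histone modifying enzymes 4 were positive (median 0.12). KDM4A-AS1, opposite the histone demethylase gene KDM4A, held 124, 102 and 235 against 65, 81 and 111 counts, with 0.52 ± 0.26, ratios of 0.92, 0.34 and 0.30 and groups that did not overlap. CCDC77, opposite the demethylase gene KDM5A, had 1.33 ± 0.61 and ratios of 1.55, 2.67 and 0.01 on 1 to 19 counts. RNASEH2C, opposite the acetyltransferase gene KAT5, had 0.00 ± 0.25 and ratios of 0.00, -0.10 and 0.15. Of the rows opposite RNA-binding and splicing factors, MFSD11, opposite SRSF2, had 0.35 ± 0.27 and ratios of 0.23, 0.84 and -0.07, and RBM5-AS1, opposite RBM5, had 0.72 ± 0.34 and ratios of 1.22, 1.49 and -0.07. The 7 rows of that list had a median of 0.02, with 4 positive.

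Among metabolic and stress lists, rows opposite cholesterol and fatty acid synthesis genes had replicate ratio medians of 0.73, 0.37 and -0.07, with 3 of 5 positive and a median of 0.19. IDI2-AS1, opposite the isoprenoid enzyme gene IDI1, had 0.66 ± 0.30 and ratios of 1.01, 1.39 and -0.22. FADS2, opposite the desaturase gene FADS1, had 1.15 ± 0.53 and ratios of 1.56, 2.21 and 0.05, and RUSC1-AS1, opposite FDPS, had -0.34 ± 0.25 and ratios of -0.35, -0.50 and -0.07. Of 8 rows opposite NRF2 and autophagy genes 4 were positive (median -0.03). C5orf45, opposite the autophagy receptor gene SQSTM1, held 1548, 1512 and 2260 against 1673, 1711 and 1368 counts, with 536, 517 and 795 in the controls. Its log2 difference was -0.12 ± 0.26 and its ratios were -0.11, -0.17 and -0.06, while the 3 controls held fewer counts than any vesicle library. TMEM184A, opposite the small MAF gene MAFK, had -0.60 ± 0.27 and ratios of -0.75, -0.74 and -0.14.

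Rows opposite genes of cyclic AMP signalling and ion transport, the pathway that cholera toxin acts on, had a median of 0.17 with 4 of 5 positive. NME7, opposite ATP1B1, the beta subunit of the sodium pump, held 1095, 1147 and 2372 counts with V. cholerae, 834, 1035 and 756 with E. coli vesicles and 610, 550 and 594 in the controls. The level was 3196 ± 92.2 against 2356 ± 619 CPM (SD, n = 3), and the groups did not overlap. Its log2 difference was 0.44 ± 0.24 with an adjusted p of 0.671 (edgeR), and its ratios were 0.39, 0.16 and 0.87, with replicate 3 the largest. KCNQ1OT1, opposite the potassium channel gene KCNQ1, had a log2 difference of 0.38 ± 0.31 and ratios of 0.36, 0.79 and 0.17.

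Of 5 rows opposite keratin, junction and epithelial identity genes 4 were negative (median -0.21), and LOC100652770, opposite the desmosomal cadherin gene DSG2, had 1.07 ± 0.34 and ratios of 1.20, 2.28 and 0.04. Of 8 rows opposite endocytosis and membrane traffic genes 5 were positive (median 0.07). SLC9A3, opposite the exocyst gene EXOC3, had 0.37 ± 0.29 and ratios of 0.47, 0.27 and 0.35, and FUZ, opposite the clathrin adaptor gene AP2A1, had -0.38 ± 0.29 and ratios of -0.40, -0.65 and 0.13.

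Few genes of the response to bacterial products had enough counts to be tested. By opposite gene, 2 rows for NF-kB targets and cytokines and 1 for sensors and adaptors were tested, and by row name 4 and 7. Over the 6 libraries the rows held 2 counts for CXCL8, 1 for CCL20, 1 for TNFAIP3, 0 for TLR4, 1 for TLR5, 23 for NOD1 and 0 for NOD2. These counts are too few to show a difference. They are also no measure of the named genes, since which gene's reads a row holds was not tested. The PPIB row, for example, held 31 counts over the 6 libraries, while SNX22 opposite it held 8716 to 15498 in each. ACAT2, opposite SOD2, the mitochondrial superoxide dismutase and an NF-kB target, held a mean of 1094 counts and had -0.51 ± 0.28 with ratios of -0.46, -0.86 and -0.02. NAIP, a flagellin sensor subunit of the inflammasome with no exon opposite, had -0.55 ± 0.36 and ratios of -1.36, -0.75 and -0.02, and CD14, the lipopolysaccharide co-receptor, had 0.87 ± 0.49 and ratios of 1.24, 1.34 and -0.24 on a mean of 10.5 counts. The adjusted p values of these 3 rows were 0.664 or more in edgeR's test.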

How the data were processed

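Polyadenylated RNA of 9 libraries was sequenced as single reads of 50 bp from a stranded kit, per the labels' protocols. The submitters' processing notes name Bowtie2 2.2.3, Cufflinks 2.2.1, FastQC, HTSeq 0.6.1, SAMtools 0.1.19 and TopHat2 2.0.12, with hg19 as the build. The deposited table holds whole-number counts per gene row, with no normalization found in the values. Annotation and strand setting were not given in the sources used here.

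Rows with 10 or more counts in at least 3 of the 6 vesicle libraries were scaled by TMM and tested by group with the robust quasi-likelihood F-test of edgeR 4.0.16 (R 4.3.3). Benjamini-Hochberg adjustment ran over all 3433 rows, and a row was called under 0.05. The SE is the size of the log2 difference over the square root of F. Control CPM were scaled on the same rows. A floor of 3 counts covers counting error only. The test was checked on simulated counts with replicate effects shared by both groups, which these libraries are not shown to have. By group it recovered 0 of 67 rows changed 1.5-fold, 2 of 67 changed 2-fold and 39 of 66 changed 4-fold, with 0 false calls. With the replicate number as a term it recovered 6, 41 and 66, with 5 false calls. In the simulated counts most 2-fold differences thus went uncalled by group. All simulated rows had the same spread beyond counting error, so recovery and false calls in the real libraries may differ. A row not called is not shown to be unchanged.

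Row names were matched to GENCODE 29 on GRCh38, with RefSeq names as a fallback. The builds differ, so coordinates are those of GRCh38 and not of the counting.

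Named rows were those called by group or with the replicate number as a term, the 10 highest and 10 lowest log2 differences with a mean of at least 30 counts, groups apart and 1 sign in all replicates, the 5 highest and 5 lowest with replicate 3 of the other sign by at least 0.5, the 5 with the most counts, and in each list of at least 5 rows the 2 with the smallest p and the 1 with the most counts. SOCS2 and DNMT1 were named by choice, loci without a gene name and no coding gene opposite were passed over, and neighbours, low-count genes and further list members were named after their values were seen. One row that the rule names is not reported here. Members and lists were chosen with earlier results of these data known. Alternatives included RLE factors, other filters, limma voom 3.58.1, DESeq2 1.42.0, all 9 libraries, and leaving out each library.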

Additional observations from a re-analysis of the deposited data

How the results depend on the processing

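The count of called rows, 1 in the report, depended on the fit. It was 0 with RLE factors, with library totals alone, with a filter of 20 counts in 3 libraries or 10 in all 6, with all 9 libraries fitted, with V. cholerae replicates 1 and 2 summed, and among rows with a coding gene opposite with or without the position trend, each also with a replicate block. Those fits had 167 to 338 rows at an unadjusted p under 0.05, and DESeq2 called 3 rows. It was 20 with no filter and 790 in replicates 1 and 2 alone. Leaving out 1 library gave 0 to 730 rows over fits without and with the block, with 239 without E. coli replicate 3 and no block (the other 5 fits without the block called 0, with 110 to 435 rows at an unadjusted p under 0.05). A lone library left in a replicate is assumed to vary like the others. The cause of these changes was not tested. Agreement of replicate 3 stayed at 53.1% to 54.8%. Depth limits rows near 3 counts.

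Replicate numbers are shared by the groups, but deviations from group means correlated at 0.310, 0.0769 and 0.399 for replicates 1, 2 and 3, so the numbers are not shown to pair libraries. V. cholerae replicates 1 and 3 correlated best with their own number and replicate 2 with E. coli replicate 1 (0.246). With the replicate block 2 rows were called (C11orf68 and SOCS2), and 2 with all 9 libraries (C11orf68 and BAZ2A). Leaving out 1 library with the block kept the C11orf68 call in 5 of 6 fits (adjusted p 9.36e-09 to 0.0533, edgeR), the exception being without E. coli replicate 1. SOCS2 was called in 6 of these 6 fits (adjusted p 2.23e-11 to 0.00675, edgeR), and in 1 of 6 without the block.

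Of 66 named rows, 51 kept their sign under every alternative and 15 turned in at least 1, all with report values near 0 or with replicate 3 opposed. With the position trend removed, without and with the block, TTC7A was -0.14 and -0.066, NEIL1 0.18 and 0.014, SNX22 0.013 and 0.014, LOC284889 0.00418 and 0.00697, MXD3 0.18 and 0.17, and C5orf45 0.072 and 0.068, and MYH7B was 0.00833 without it. Among rows with a coding gene opposite, NEIL1 was 0.021 and MXD3 0.017, or 0.013 with the block. RLE factors and DESeq2 gave ATP6V1C2 -0.013 in both, RNASEH2C -0.024 in both and TMEM50B -0.00935 and -0.00803. Library totals gave NEIL1 0.058, MXD3 0.064 and PRC1-AS1 0.017. The filters of 20 counts and of all 6 libraries gave NEIL1 0.021 and 0.033 and MXD3 0.024 and 0.042, and no filter gave MXD3 0.010. With V. cholerae replicates 1 and 2 summed, NEIL1 was 0.18, ATP6V1C2 -0.059, RNASEH2C -0.065, ENOSF1 -0.026 and TMEM50B -0.11. Replicates 1 and 2 alone gave MXD3 0.017 and RNASEH2C -0.044, all 9 libraries gave RNASEH2C -2.72e-05, voom gave TMEM50B -0.040, and the block gave TMEM50B -0.016, or -0.014 with all 9 libraries. Leaving out 1 library gave ranges of -0.26 to 1.20 for TTC7A, -0.67 to 0.22 for NEIL1, -0.64 to 0.34 for MYH7B, -0.091 to 0.16 for ATP6V1C2, -0.47 to 0.031 for LOC284889, -0.16 to 0.20 for MXD3, -0.17 to 0.16 for RNASEH2C, -0.071 to 0.22 for ENOSF1, -0.12 to 0.090 for PRC1-AS1, -0.20 to 0.28 for TMEM50B, -0.29 to 0.059 for C5orf45, -0.018 to 1.15 for LOC100506606, -1.39 to 0.057 for ENO4 and -0.81 to 0.18 for TSPAN18.

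List medians moved with membership and with the choice of replicates. By row name they were 0.037 for NRF2 and autophagy, 0.37 for cyclic AMP, 0.15 for G2/M, -0.010 for DNA and histone modifying enzymes, -0.11 for chromatin remodelling, -0.28 for RNA-binding factors, -0.34 for ribosomal proteins and -0.28 for actin. In replicate 3 they were 0.052 for NRF2 and autophagy, 0.093 for cyclic AMP, -0.20 for G2/M, 0.065 for modifying enzymes, -0.15 for remodelling, -0.063 for ribosomal proteins, -0.49 for actin and 0.025 for keratins. In replicates 1 and 2 they were 0.055 for NRF2 and autophagy, -0.35 for G2/M and 0.64 for cholesterol.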

Other observations

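Many rows with fewer than 30 counts on average had 1 sign in all 3 replicates and groups that did not overlap, and 4 of them are given here. These were chosen after their values were seen, and none passed edgeR's test. Over all 3433 rows compared, groups did not overlap in 260 (7.57%) with V. cholerae higher and in 160 (4.66%) with it lower. RAN, the GTPase of nuclear transport, had 3, 3 and 4 counts with V. cholerae and 20, 11 and 13 with E. coli vesicles, with 2, 7 and 5 in the controls and replicate ratios of -2.23, -1.44 and -1.78. BAG1, a co-chaperone of HSP70, had 14, 25 and 59 against 7, 8 and 11 counts, with ratios of 0.86, 1.48 and 1.48. FAM13A-AS1, opposite FAM13A, had 15, 21 and 26 against 5, 3 and 6 counts, with ratios of 1.33, 2.30 and 1.10. GNAT2, opposite the G protein subunit gene GNAI3, had 12, 11 and 28 against 2, 1 and 7 counts, with ratios of 1.91, 2.28 and 1.02. In these 4 rows the sign of replicate 3 was part of the choice, and counts were low in several libraries. RAN passed the count filter through the E. coli libraries alone. FAM13A-AS1 and GNAT2 passed it through the V. cholerae libraries alone. In RAN, FAM13A-AS1 and GNAT2 the filter thus set which group had the higher counts, so their direction is not a result. HIF1A-AS1, opposite HIF1A, had a high mean ratio of replicates 1 and 2 with replicate 3 at 0, with 143, 133 and 203 against 25, 3 and 119 counts and ratios of 2.44, 4.88 and -0.01.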
